A study of Mus with 10 samples.

Results

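Chemokines are small secreted proteins that guide leukocytes, and their receptors are carried by the cells they guide. The genes described here were those whose symbol begins with Ccl, Cxcl, Ccr or Cxcr followed by a digit, apart from the interferon-gamma chemokines Cxcl9, Cxcl10 and Cxcl11. Each was read from the probe sets that the platform annotation gives a single symbol, taking the probe set with the highest mean. This rule gave 45 genes, 29 ligands and 16 receptors, of 22180 genes measured on the arrays. The rule uses symbols and mean levels, not differences between the groups.

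The samples were skin of female BALB/c mice aged 7 to 8 weeks, and RNA was measured on Affymetrix gene arrays. There were 4 arrays from the group with a gap of 7 days after PUVA, 4 from the group with a gap of 3 days, and 2 control arrays. PUVA is a phototherapy in which psoralen, a compound that crosslinks DNA when lit, is followed by UVA light. Per the labels, psoralen was applied topically and UVA was given at 0.25 J/cm2, in 2 sessions per week for 2 weeks, and the controls had no gap. The same labels name imiquimod, a Toll-like receptor agonist that causes psoriasis-like inflammation in mouse skin, as following the gap, but do not say whether the skin put on the arrays had received it. The gap is used here only as a label and is not read as a time of sampling. Nothing in the labels but the titles bears on whether the samples of a group came from different animals, so p-values rest on the variation among these arrays alone, part of which may be technical.

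Chemokines act through receptors coupled to G proteins, and 1 receptor often binds several ligands. CXCR2 draws neutrophils, CCR2 draws monocytes, CCR3 draws eosinophils, CCR6 draws T helper 17 cells and precursors of Langerhans cells, and CCR4, CCR8 and CCR10 mark T cells that home to skin. Keratinocytes make several of the ligands, among them Ccl27, Ccl20 and Cxcl14, while fibroblasts, macrophages and endothelium make others.

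Values are on a log2 scale, and all array medians lay between 5.83 and 5.86. The keratinocyte markers, 8 of 9 measured, averaged 11.48 to 11.62 on the 7-day arrays, 11.28 to 11.52 on the 3-day arrays and 11.35 to 11.56 on the control arrays, so the labelled tissue carried its markers on every array. The hair sheath and shaft markers averaged 4.64 to 4.84 on the 7-day arrays, 4.61 to 4.96 on the 3-day arrays and 5.99 and 8.46 on the controls. The 2 controls thus differed in them, and both lay above every PUVA array. Of these 9 markers, 0 had a difference above 0 against control in the 3-day group (median -2.74) or the 7-day group (median -2.80). Their part in the differences below was not tested. Extreme values of the chemokine genes were not spread evenly over the arrays. Control replicate 2 held the lowest value of the 10 arrays for 12 of the 45 genes (26.7%, against 12.8% of all genes). The highest value lay on 3-day replicate 4 for 8 genes (17.8%, against 6.74% of all genes). On 3-day replicate 2 it lay for another 8 (17.8%), near the share of all genes (13.8%). These were Ccl2, Ccl6, Ccl7, Ccl8, Ccl9, Ccl12, Ccr1 and Ccr2. The same array also held the lowest value for 7 genes (15.6%, against 14.8% of all genes). Of the 45 genes, 3 (Cxcl3, Cxcl15 and Ccr1l1) lay below the array's lower quartile of 4.17 to 4.23 on all 10 arrays, and 4 more did so on some of them.

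No chemokine or receptor gene passed an adjusted p of 0.05 (limma, Benjamini-Hochberg over all 22180 genes) in any of the 3 comparisons. In all genes together, 0.00451% passed as lower in the 3-day group than in control, none passed for the 7-day group against control, and 0.00451% passed in each direction between the 7-day and the 3-day group. Counts at an unadjusted p under 0.05 are therefore given as descriptions, each beside the share of all genes that met the same rule.

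In the 3-day group against control, 31 of the 45 genes had a log2 difference above 0, which is 68.9%, against 50.6% of all genes. Their median difference was 0.14 and that of all genes was 0.0023. At an unadjusted p under 0.05, 6 of the 45 (13.3%) were higher, against 5.67% of all genes, and 0 were lower, against 4.07% of all genes. The 6 were Cxcl13, Ccr3, Ccr1l1, Ccl2, Cxcl15 and Ccl5. Without the lowest 30% of genes, 4 of the 38 members left came under this p, against 11.7% of the genes left in either direction. For 11 of the 45 (24.4%) every 3-day array lay above both controls, which was so for 9.52% of all genes, and for 1, Cxcl3, every 3-day array lay below them (7.89% of all genes). In both directions together these 12 became 22 without control replicate 1 (43.4% of all genes then met the rule), 21 without control replicate 2 (41.1% of all genes) and 19 without 3-day replicate 3 (26.8% of all genes), against 17.4% of all genes with every array. An unadjusted p under 0.05 in either direction was reached by 9.74% of all genes. The 6 members at that p became 5 without 3-day replicate 4 (8.36% of all genes in either direction). Without 3-day replicate 2 they became 10 (8.03% of all genes). They became 11 without 3-day replicate 3 (11.3% of all genes), and the members' median was 0.084 without control replicate 2.

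The 7-day group lay closer to control. Here 28 of 45 genes had a difference above 0 (62.2%, against 55% of all genes), and the median was 0.073, against 0.015 for all genes. At an unadjusted p under 0.05, 2 genes (4.44%), Cxcl13 and Ccl24, were higher, against 3.21% of all genes, and 0 were lower (2.68% of all genes). All 7-day arrays lay above both controls for 3 genes, Cxcl13, Ccl24 and Ccl4 (6.67%, against 8.56% of all genes), and below them for 0 (5.85% of all genes). The 3 genes (14.4% of all genes in either direction) became 23 without control replicate 1 (47.4% of all genes) and 11 without control replicate 2 (33.4% of all genes). They became 6, 9 and 6 without 7-day replicates 2, 3 and 4 (20.7%, 21.5% and 19.6% of all genes). With every array, the members' shares without overlap were not above those of all genes. An unadjusted p under 0.05 in either direction was reached by 5.89% of all genes. The count of 2 members at that p became 4 without 7-day replicate 3 (5.57% of all genes) and 1 without 7-day replicate 4 (4.76% of all genes). Both comparisons use the same 2 control arrays, so a control that is high or low for a gene enters both.

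Between the PUVA groups, which share no array, 29 of the 45 genes had a lower mean in the 7-day group. Only 16 (35.6%) had a difference above 0, against 53.2% of all genes. The median difference, 7-day minus 3-day, was -0.035, against 0.0095 for all genes. At an unadjusted p under 0.05, 5 genes (11.1%) were lower in the 7-day group, against 4.43% of all genes: Ccr3, Ccr8, Ccl5, Ccl12 and Ccl3. In the other direction 2 genes (4.44%), Ccl20 and Cxcl5, were higher in the 7-day group, against 5.33% of all genes. The 7-day arrays lay below all 3-day arrays for 3 genes (6.67%, against 2.28% of all genes), namely Ccr3, Ccr8 and Ccl28, and above them for 1 gene, Ccl20 (2.22%, against 2.95% of all genes). The 7 genes at an unadjusted p under 0.05 in either direction (15.6%, against 9.77% of all genes) became 12 without 3-day replicate 1 (12.2% of all genes). They became 11 without 3-day replicate 3 (11.1% of all genes). The median was -0.11 without 3-day replicate 1, -0.095 without 7-day replicate 4 and 0.0045 without 3-day replicate 3.

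**Figure D1:**
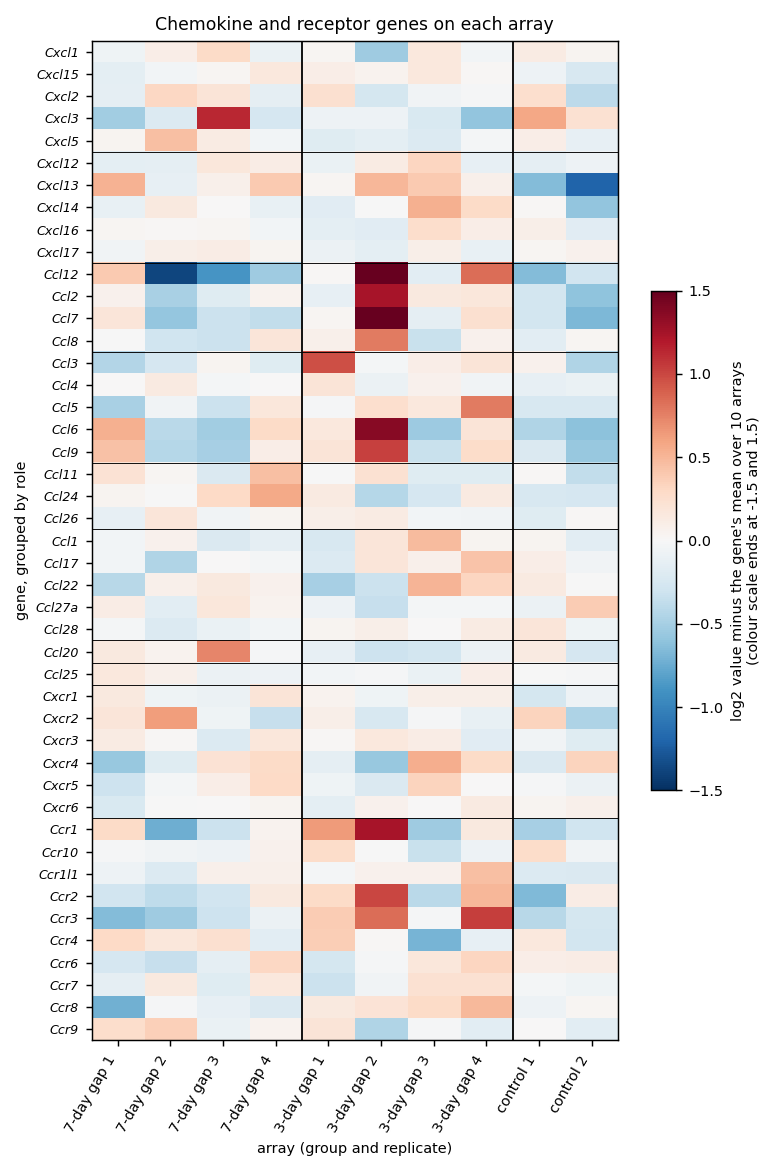
The 45 chemokine and receptor genes (rows, grouped by role) on the 10 arrays (columns, 7-day, 3-day and control), coloured by the log2 value minus the gene's mean over the 10 arrays. The row of Cxcl13 is low on both control arrays, and 3-day replicate 2 is high in the rows of Ccl2, Ccl7, Ccl12, Ccl6 and Ccr1.

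**Figure D2:**
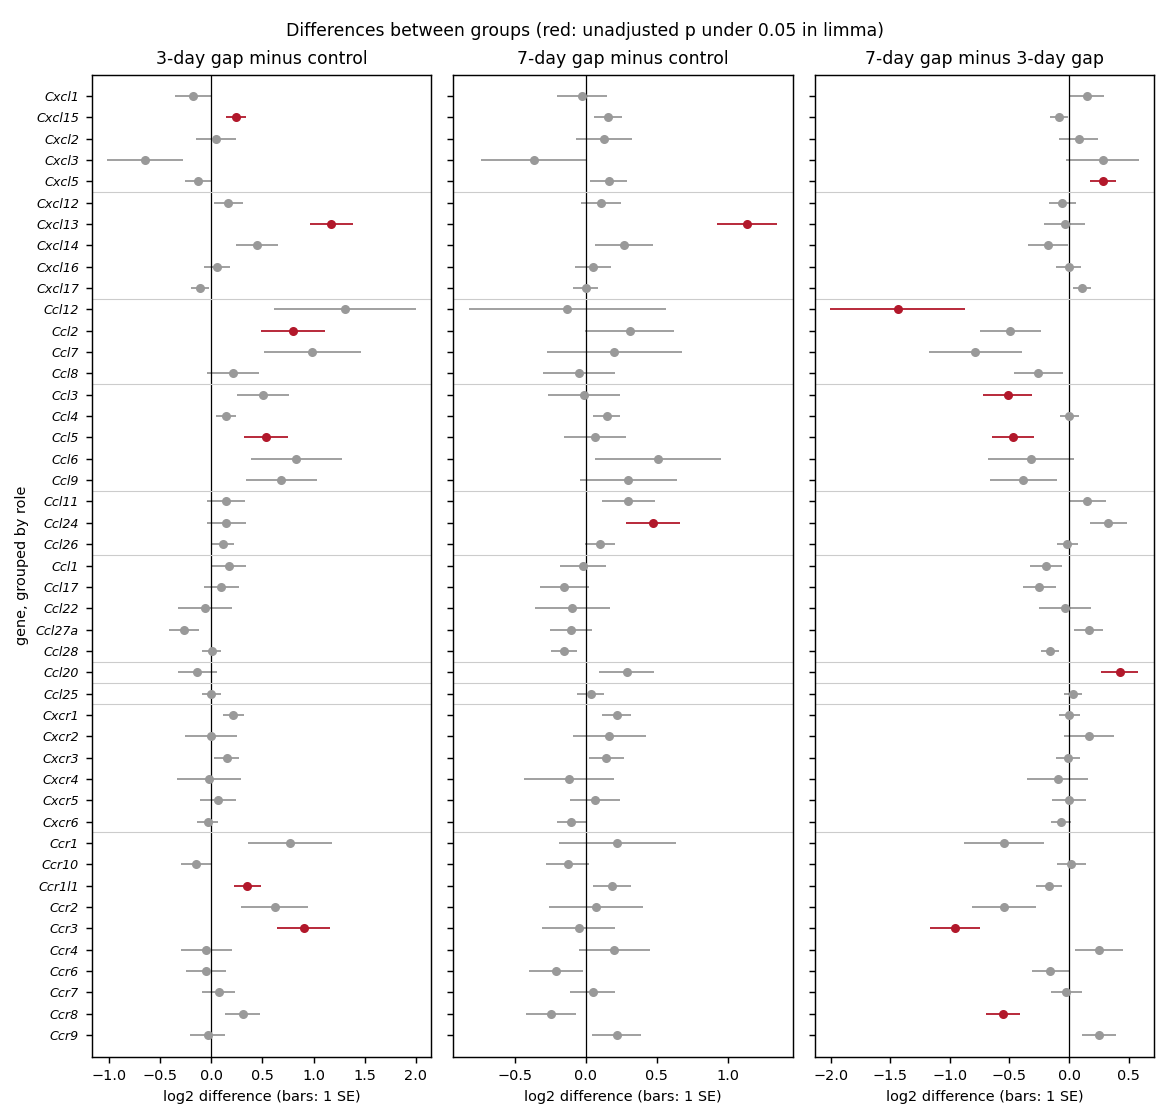
Log2 differences of the 45 genes with bars of 1 SE, for the 3-day group minus control, the 7-day group minus control and the 7-day minus the 3-day group; red marks an unadjusted p under 0.05 in limma. Cxcl13 lies near 1.17 and 1.14 in the first and second panels and at -0.03 in the third, and Ccr3 lies at 0.90 in the first and at -0.95 in the third.

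Cxcl13, the ligand of CXCR5 that draws B cells into lymphoid follicles, differed most from control in units of its error. Its log2 values were 10.05, 9.41, 9.61 and 9.92 on the 7-day arrays, 9.56, 10.03, 9.93 and 9.61 on the 3-day arrays, and 8.88 and 8.34 on the controls. Every PUVA array lay above both controls, and the PUVA groups overlapped throughout. Group means were 9.75 ± 0.29 in the 7-day group, 9.78 ± 0.23 in the 3-day group and 8.61 ± 0.38 in control (SD, n = 4, 4 and 2). The difference from control was 1.17 ± 0.21 (SE) in the 3-day group, a fold of 2.25, with an unadjusted p of 0.000202 and an adjusted p of 0.118 in limma. In the 7-day group it was 1.14 ± 0.21, a fold of 2.2, with an unadjusted p of 0.000256 and an adjusted p of 0.653. By p it ranked 38 of 22180 genes in the 3-day group and 6 in the 7-day group. Their mutual difference, 7-day minus 3-day, was -0.03 ± 0.17, with a 95% interval of -0.42 to 0.35.

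The control arrays set how far Cxcl13 stood from the threshold. Without control replicate 1, the higher of the 2, the differences were 1.44 in the 3-day group (adjusted p of 0.0332 in limma) and 1.41 in the 7-day group (adjusted p of 0.0329), both past 0.05. In that fit the number of genes of any kind past the threshold was 182 in the 3-day group and 217 in the 7-day group, and the spread of the lone control is taken from the PUVA groups. Without control replicate 2 they were 0.90 (adjusted p of 0.569) and 0.87, both short of it. The receptor gene Cxcr5 had differences of 0.07 ± 0.17 in the 3-day group and 0.06 ± 0.17 in the 7-day group against control. B cell markers, 3 of 4 measured, averaged 4.34 to 4.57 on the 7-day arrays, 4.39 to 4.64 on the 3-day arrays and 4.44 and 5.22 on the controls. Their highest mean was on control replicate 2, where Cxcl13 was lowest, and 0 of the 3 had a difference above 0 in either PUVA group. In whole skin, fewer cells of a type and less RNA per cell cannot be told apart, for this gene and for those below.

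The other constitutive CXC ligands differed less. Cxcl14, which the epidermis makes without stimulation, had log2 values of 10.37, 10.63, 10.49 and 10.38 on the 7-day arrays, 10.31, 10.48, 11.01 and 10.77 on the 3-day arrays, and 10.51 and 9.89 on the controls. Control replicate 2 lay below every PUVA array and control replicate 1 among them. The difference of the 3-day group from control was 0.44 ± 0.20 (unadjusted p of 0.0538) and was 0.14 without control replicate 2. That of the 7-day group was 0.27 ± 0.20, and -0.04 without the same array.

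Cxcl12, a stromal ligand that retains CXCR4-bearing cells, had 9.36, 9.37, 9.68 and 9.62 on the 7-day arrays, 9.41, 9.64, 9.83 and 9.38 on the 3-day arrays and 9.37 and 9.43 on the controls. Its 3 groups overlapped. The differences were 0.17 ± 0.14 for the 3-day group against control, 0.11 ± 0.14 for the 7-day group against control and -0.06 ± 0.11 between the PUVA groups. Fibroblast markers, 6 of 6 measured, averaged 10.91 to 11.38 on the 7-day arrays, 11.36 to 11.99 on the 3-day arrays and 10.87 and 11.50 on the controls. The receptor gene Cxcr4 read 7.07, 7.46, 7.85 and 7.92 on the 7-day arrays, 7.51, 7.07, 8.19 and 7.92 on the 3-day arrays and 7.42 and 7.98 on the controls. It spread over more than 1 log2 unit among the 3-day arrays, and its differences were -0.03 ± 0.32, -0.12 ± 0.32 and -0.10 ± 0.26 in the same 3 comparisons. Cxcl16, the transmembrane ligand of CXCR6, and Cxcl17, a mucosal chemokine, had differences between -0.11 and 0.11 in all 3, and the receptor genes Cxcr6 and Cxcr3 between -0.10 and 0.15.

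The neutrophil-attracting CXC ligands showed no common direction against control. Of the 5 genes, 2 had a difference above 0 in the 3-day group against control (median -0.13) and 3 in the 7-day group (median 0.13). Between the PUVA groups, 4 of the 5 had a 7-day minus 3-day difference above 0 (median 0.15), against 53.2% of all genes. Cxcl1, the keratinocyte-derived chemokine, had 4.94, 5.10, 5.30 and 4.90 on the 7-day arrays, 5.04, 4.47, 5.17 and 4.97 on the 3-day arrays and 5.14 and 5.05 on the controls. Cxcl2, another ligand of CXCR2, had 4.04, 4.48, 4.36 and 4.03 on the 7-day arrays, 4.41, 3.91, 4.12 and 4.16 on the 3-day arrays and 4.43 and 3.77 on the controls. Both genes overlapped across all groups, and Cxcl2 lay below the lower quartile on 6 arrays. For Cxcl1 the 95% interval of the difference from control was -0.57 to 0.21 in the 3-day group and -0.42 to 0.36 in the 7-day group. For Cxcl2 it was -0.39 to 0.49 in the 3-day group and -0.31 to 0.57 in the 7-day group.

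Cxcl5, which binds both CXCR1 and CXCR2 in mice, was the only member of this group at an unadjusted p under 0.05 in limma between the PUVA groups. It had 4.48, 4.89, 4.56 and 4.40 on the 7-day arrays, 4.26, 4.29, 4.23 and 4.40 on the 3-day arrays and 4.53 and 4.31 on the controls. The lowest 7-day array and the highest 3-day array had nearly the same value. The 7-day minus 3-day difference was 0.29 ± 0.11 (unadjusted p of 0.0223, adjusted p of 0.457 in limma) and was 0.18 without 7-day replicate 2, and neither group's arrays all lay on one side of the controls. Cxcl15, described as a lung chemokine in mice, was dim throughout, with 3.77, 3.87, 3.94 and 4.07 on the 7-day arrays, 4.02, 3.97, 4.07 and 3.93 on the 3-day arrays and 3.84 and 3.67 on the controls. Its difference of 0.24 ± 0.10 in the 3-day group against control (unadjusted p of 0.0318, adjusted p of 0.48) is a difference between values all below the arrays' lower quartile. Cxcl3, a further CXCR2 ligand, was also below it on every array. Its differences from control were -0.65 ± 0.37 in the 3-day group and -0.37 ± 0.37 in the 7-day group. Between the PUVA groups its difference was 0.28 ± 0.31, close in size to that of Cxcl5.

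Cxcr2, the main neutrophil chemokine receptor, had 6.27, 6.70, 6.01 and 5.74 on the 7-day arrays, 6.17, 5.85, 6.07 and 5.97 on the 3-day arrays and 6.41 and 5.62 on the controls. The 2 controls spanned most of the range, and the differences from control were -0.00 ± 0.26 in the 3-day group and 0.16 ± 0.26 in the 7-day group. Cxcr1 had 5.39, 5.18, 5.16 and 5.44 on the 7-day arrays, 5.29, 5.18, 5.34 and 5.34 on the 3-day arrays and 4.98 and 5.17 on the controls. All 3-day arrays lay just above both controls, and its differences were 0.21 ± 0.10 (unadjusted p of 0.0679) in the 3-day group and 0.22 ± 0.10 (unadjusted p of 0.0651) in the 7-day group. Neutrophil markers, 10 of 10 measured, averaged 4.91 to 4.98 on the 7-day arrays, 4.998 to 5.16 on the 3-day arrays and 4.92 to 4.95 on the controls, and Ly6g, the defining surface marker, lay below the lower quartile on every array.

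The 4 CC ligands of CCR2, which draw monocytes, all had a difference above 0 in the 3-day group against control (median 0.89) and all 4 had one below 0 between the 7-day and the 3-day group (median -0.64). Ccl2, the principal monocyte chemoattractant, had 6.74, 6.19, 6.49 and 6.72 on the 7-day arrays, 6.54, 7.90, 6.82 and 6.84 on the 3-day arrays and 6.39 and 6.06 on the controls. Each 3-day array lay above both controls, with replicate 2 more than 1 log2 unit above the other 3. The difference was 0.80 ± 0.31 (unadjusted p of 0.0281, adjusted p of 0.467 in limma), and 0.51 without that array. For the 7-day group it was 0.31 ± 0.31, and between the PUVA groups -0.49 ± 0.26, which was -0.20 without 3-day replicate 2.

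Ccl7 and Ccl12, further monocyte chemoattractants, had the same array on top. Ccl7 had 7.37, 6.61, 6.86 and 6.82 on the 7-day arrays, 7.22, 9.11, 7.06 and 7.43 on the 3-day arrays and 6.92 and 6.52 on the controls. Ccl12 had 6.01, 4.23, 4.72 and 5.09 on the 7-day arrays, 5.63, 8.27, 5.45 and 6.45 on the 3-day arrays and 4.97 and 5.32 on the controls. All 3-day arrays lay above both controls for both genes. The Ccl7 difference was 0.99 ± 0.47 (unadjusted p of 0.0628), and 0.52 without 3-day replicate 2. For Ccl12 the difference was 1.31 ± 0.70 (unadjusted p of 0.0883), and 0.70 without it. Ccl12 had -1.44 ± 0.57 (unadjusted p of 0.0287, adjusted p of 0.471) between the PUVA groups, and -0.83 without the same array. Ccl8, which in mice also binds CCR8, had 0.21 ± 0.25 in the 3-day group against control, and -0.00 without 3-day replicate 2, so that 3 of the 4 ligands then lay above 0.

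Ccr2, the receptor of classical monocytes, had 7.86, 7.77, 7.86 and 8.30 on the 7-day arrays, 8.43, 9.15, 7.75 and 8.64 on the 3-day arrays and 7.49 and 8.26 on the controls. The 3-day arrays were high except for replicate 3, which lay between the controls. Its difference was 0.62 ± 0.33 (unadjusted p of 0.0893) for the 3-day group against control and -0.55 ± 0.27 (unadjusted p of 0.0693) between the PUVA groups. The first was 0.23 without control replicate 1 and 1.0045 without control replicate 2, and the second was -0.33 without 3-day replicate 2.

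Macrophage and monocyte markers, 12 of 12 measured and none below the lower quartile on all arrays, had their highest mean on the same array. They averaged 9.31, 8.96, 8.98 and 9.45 on the 7-day arrays, 9.46, 10.04, 9.07 and 9.44 on the 3-day arrays and 8.91 and 9.05 on the controls. All 12 had a difference above 0 in the 3-day group against control (median 0.45) and all 12 in the 7-day group (median 0.21), and 1 of 12 had one between the 7-day and the 3-day group (median -0.32). The mean of Ccl2, Ccl7, Ccl8 and Ccl12 was 7.43, 6.59, 6.84 and 7.11 on the 7-day arrays, 7.27, 8.92, 7.15 and 7.60 on the 3-day arrays and 6.93 and 6.89 on the controls. Both means were highest on 3-day replicate 2. The part of the macrophage markers in these differences was not tested.

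**Figure D3:**
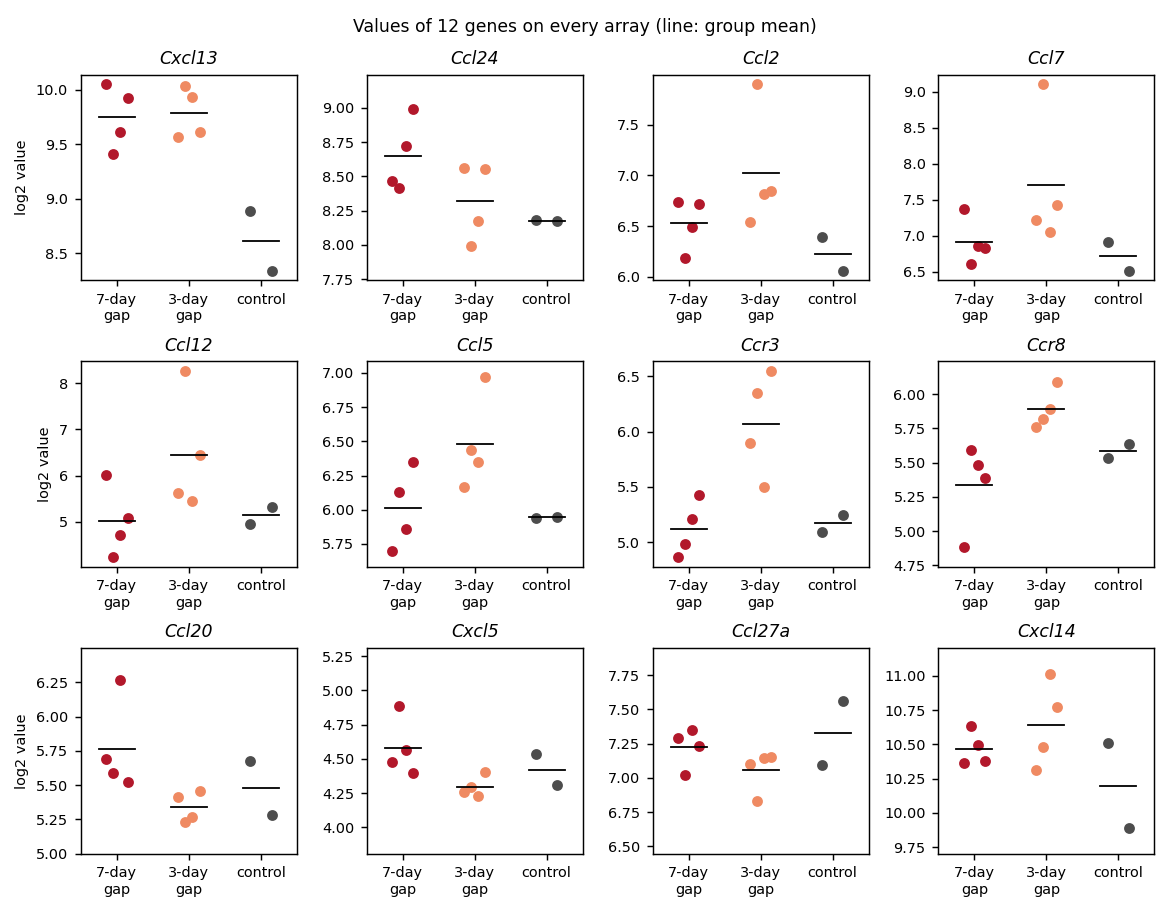
Log2 values of 12 genes on each array (points) with the group mean (line), for the 7-day, 3-day and control groups; each panel has its own scale. Both controls lie below every PUVA array for Cxcl13, 1 array of the 3-day group stands far above the others for Ccl2, Ccl7 and Ccl12, and the 7-day and 3-day arrays do not overlap for Ccr3, Ccr8 and Ccl20.

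The 5 inflammatory CC ligands Ccl3, Ccl4, Ccl5, Ccl6 and Ccl9 also all had a difference above 0 in the 3-day group against control (median 0.53), and 4 of the 5 had one below 0 between the PUVA groups (median -0.39). Ccl5, which T cells, natural killer cells and platelets release, had 5.70, 6.13, 5.86 and 6.35 on the 7-day arrays, 6.16, 6.44, 6.35 and 6.97 on the 3-day arrays and 5.94 and 5.95 on the controls. The 3-day arrays lay above both controls, and the 7-day arrays lay on either side of them. The differences were 0.53 ± 0.22 for the 3-day group against control (unadjusted p of 0.0335, adjusted p of 0.483 in limma) and -0.47 ± 0.18 between the PUVA groups (unadjusted p of 0.0241, adjusted p of 0.461), the second being -0.31 without 3-day replicate 4. T cell markers, 10 of 12 measured, averaged 5.89 to 6.28 on the 7-day arrays, 5.99 to 6.22 on the 3-day arrays and 6.03 to 6.14 on the controls, and 4 of the 10 had a difference above 0 in the 3-day group.

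Ccl3, an inflammatory ligand of CCR1, had 4.81, 4.998, 5.29 and 5.07 on the 7-day arrays, 6.21, 5.22, 5.35 and 5.44 on the 3-day arrays and 5.31 and 4.80 on the controls. Here 3-day replicate 1 was the high array. The difference between the PUVA groups was -0.52 ± 0.21 (unadjusted p of 0.0311, adjusted p of 0.477), and -0.30 without that array. Its close relative Ccl4 differed by 0.14 ± 0.10 in the 3-day group and 0.15 ± 0.10 in the 7-day group from control and by 0.00 ± 0.08 between them.

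Ccl6 and Ccl9, ligands of CCR1 that rodents have, were highest on 3-day replicate 2. Ccl6 had 9.46, 8.52, 8.40 and 9.21 on the 7-day arrays, 9.08, 10.29, 8.37 and 9.12 on the 3-day arrays and 8.47 and 8.31 on the controls. The differences of the 3-day group from control were 0.83 ± 0.44 for Ccl6 and 0.69 ± 0.34 for Ccl9, and 0.47 and 0.44 without that array. Ccr1 itself, the receptor of both, had 5.50, 4.47, 4.89 and 5.26 on the 7-day arrays, 5.85, 6.45, 4.67 and 5.36 on the 3-day arrays and 4.71 and 4.91 on the controls. It overlapped across all 3 groups, with a difference of 0.77 ± 0.41 in the 3-day group against control, and 0.48 without 3-day replicate 2. Among the 7-day arrays replicates 1 and 4 were the higher ones for Ccl6, Ccl9 and Ccr1, and these 2 also had the higher macrophage marker means.

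**Figure D4:**
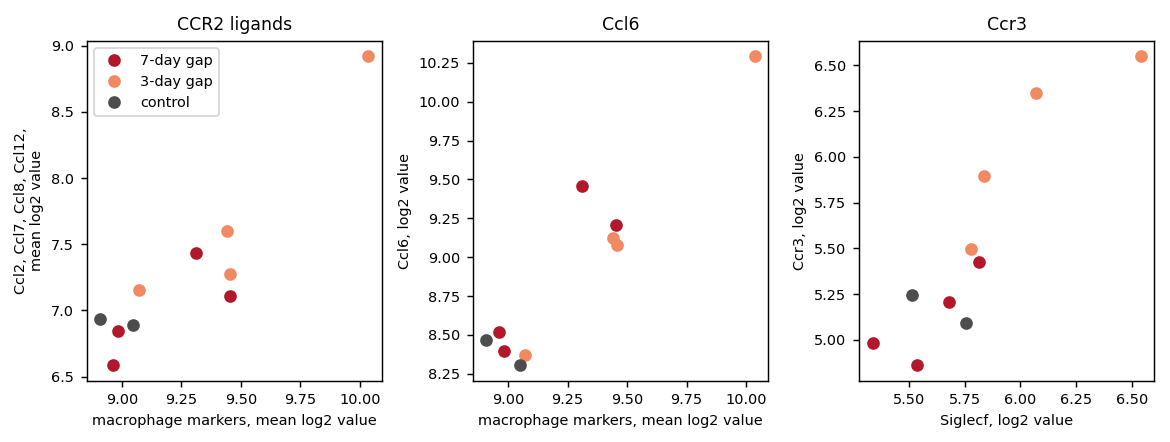
Per array, the mean log2 value of Ccl2, Ccl7, Ccl8 and Ccl12 and the log2 value of Ccl6 against the mean of 12 macrophage markers, and the log2 value of Ccr3 against that of the eosinophil marker Siglecf. In the first and second panels 3-day replicate 2 is at the upper right with a marker mean of 10.04, and in the third the 4 highest Ccr3 values are those of the 3-day arrays.

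Ccr3, the receptor of eosinophils and also of basophils and some mast cells, had the smallest p between the PUVA groups among the 45 genes. It had 4.86, 4.98, 5.21 and 5.43 on the 7-day arrays, 5.90, 6.35, 5.49 and 6.55 on the 3-day arrays and 5.09 and 5.25 on the controls. Every 3-day array lay above every 7-day array and above both controls, and the 7-day and control arrays overlapped. Means were 5.12 ± 0.25 in the 7-day group, 6.07 ± 0.47 in the 3-day group and 5.17 ± 0.11 in control (SD, n = 4, 4 and 2). The 7-day minus 3-day difference was -0.95 ± 0.21, a fold of 0.516, with an unadjusted p of 0.00094 (rank 87 of 22180 genes) and an adjusted p of 0.235 in limma. Against control the difference was 0.90 ± 0.26 in the 3-day group (unadjusted p of 0.00522, adjusted p of 0.326) and -0.05 ± 0.26 in the 7-day group. Leaving out each array in turn gave -1.15 to -0.80 between the PUVA groups.

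Other genes of eosinophils and mast cells followed Ccr3 in part. Siglecf, a surface lectin of eosinophils, had 5.53, 5.34, 5.68 and 5.82 on the 7-day arrays, 5.84, 6.07, 5.78 and 6.54 on the 3-day arrays and 5.76 and 5.52 on the controls. It was highest on the same 2 arrays as Ccr3, 3-day replicates 2 and 4. The granule genes Epx and Prg2 lay near the arrays' lower quartiles, with 3.88 to 4.22 and 3.97 to 4.47 on the 7-day arrays, 3.88 to 4.45 and 4.19 to 4.36 on the 3-day arrays, and 4.16 to 4.18 and 4.23 to 4.42 on the controls. The 4 eosinophil markers averaged 4.55 to 4.77 on the 7-day arrays, 4.74 to 5.01 on the 3-day arrays and 4.65 and 4.77 on the controls. None of the 4 had a 7-day minus 3-day difference above 0. Mast cell markers, 9 of 9 measured, averaged 6.69 to 7.00 on the 7-day arrays, 6.88 to 7.42 on the 3-day arrays and 6.68 and 6.75 on the controls. Of the 9, 8 had a lower mean in the 7-day than in the 3-day group (median -0.36). At an unadjusted p under 0.05 were 6 of the 9, against 9.77% of all genes. Against control, 8 of the 9 had a higher mean in the 3-day group (median 0.41), with 5 at an unadjusted p under 0.05 (9.74% of all genes). The order was not particular to mast cells. Between the PUVA groups, 0 of 6 fibroblast markers had a difference above 0 (median -0.55, 3 at that p). Of the macrophage markers, 1 of 12 had one (median -0.32, 3 at that p). The keratinocyte markers went the other way in 8 of 8 genes. The array with the highest mast cell mean, 3-day replicate 3, had the lowest Ccr3 value of the 3-day group. Fcer1a alone of the mast cell markers was below the lower quartile on all arrays. The part of these cells in the Ccr3 difference was not tested.

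The 3 ligands of CCR3 did not share the order of the receptor. Ccl24, eotaxin-2, a product of macrophages and epithelium, had 8.47, 8.42, 8.72 and 8.99 on the 7-day arrays, 8.56, 7.99, 8.18 and 8.56 on the 3-day arrays and 8.18 and 8.17 on the controls. The 7-day arrays all lay above both controls, while the 3-day arrays lay on both sides of them. The difference from control was 0.47 ± 0.19 in the 7-day group (unadjusted p of 0.0316, adjusted p of 0.815 in limma) and 0.14 ± 0.19 in the 3-day group, and between the PUVA groups it was 0.33 ± 0.16 (unadjusted p of 0.0597).

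Ccl11, eotaxin-1, which dermal fibroblasts release, had 9.89, 9.70, 9.46 and 10.13 on the 7-day arrays, 9.67, 9.91, 9.49 and 9.50 on the 3-day arrays and 9.69 and 9.30 on the controls. The groups overlapped, with differences of 0.14 ± 0.19 in the 3-day group and 0.30 ± 0.19 in the 7-day group against control. Ccl26, whose eotaxin-3 role is known from human cells, had 0.11 ± 0.11 and 0.10 ± 0.11 in the same order.

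Ccr8, a receptor of skin-resident and regulatory T cells, was the second receptor whose PUVA groups did not overlap. It had 4.89, 5.59, 5.49 and 5.39 on the 7-day arrays, 5.76, 5.82, 5.89 and 6.09 on the 3-day arrays and 5.53 and 5.64 on the controls. The 3-day arrays lay above all others, and 3 of the 4 7-day arrays lay below both controls. The 7-day minus 3-day difference was -0.55 ± 0.14 (unadjusted p of 0.00267, adjusted p of 0.283 in limma), with a range of -0.64 to -0.40 on leaving out each array. Against control it was 0.31 ± 0.17 in the 3-day group and -0.25 ± 0.17 in the 7-day group. The T cell markers did not share this order: 7 of 10 had a higher mean in the 7-day than in the 3-day group, with a median difference of 0.04. Ccl1, the classical ligand of CCR8, had -0.20 ± 0.13 between the PUVA groups, and Ccl8 had -0.26 ± 0.21.

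The skin-homing ligands lay close to control. None of the 5 had a difference above 0 in the 7-day group against control (median -0.10), and 3 of 5 had one in the 3-day group (median 0.0023). Ccl17, a dendritic cell product and ligand of CCR4, had 5.16, 4.75, 5.20 and 5.16 on the 7-day arrays, 4.99, 5.38, 5.27 and 5.63 on the 3-day arrays and 5.30 and 5.14 on the controls. Ccl22, the other CCR4 ligand, had 6.66, 7.16, 7.23 and 7.14 on the 7-day arrays, 6.58, 6.75, 7.58 and 7.40 on the 3-day arrays and 7.21 and 7.08 on the controls. Both overlapped across the groups. The differences between the PUVA groups were -0.25 ± 0.14 for Ccl17 and -0.03 ± 0.22 for Ccl22, and their receptor gene Ccr4 had 0.25 ± 0.20. Markers of Langerhans and dendritic cells, 8 of 10 measured, averaged 7.76 to 8.05 on the 7-day arrays, 7.91 to 8.20 on the 3-day arrays and 7.88 to 7.91 on the controls.

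Ccl27a, the keratinocyte ligand of CCR10, had 7.29, 7.02, 7.35 and 7.23 on the 7-day arrays, 7.10, 6.83, 7.15 and 7.15 on the 3-day arrays and 7.09 and 7.56 on the controls. Control replicate 2 was the highest array and control replicate 1 lay among the PUVA arrays. The differences were -0.27 ± 0.15 in the 3-day group and -0.10 ± 0.15 in the 7-day group against control. Without control replicate 2 the first was -0.03, and without control replicate 1 it was -0.51. A second probe set for the gene gave -0.19 in the 3-day group, -0.25 in the 7-day group and -0.06 between them, where the first gave 0.17, so the probe sets disagree on the direction between the PUVA groups. Ccl27a belongs to a family of near-identical copies in mice, and its signal may include theirs.

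Ccl28, an epithelial ligand of CCR10 and CCR3, had 5.72, 5.55, 5.64 and 5.70 on the 7-day arrays, 5.79, 5.83, 5.75 and 5.87 on the 3-day arrays and 5.93 and 5.68 on the controls. The 7-day arrays lay below the 3-day arrays by a small margin, and the difference was -0.16 ± 0.07 (unadjusted p of 0.0581). Ccr10 had 4.88, 4.85, 4.82 and 4.97 on the 7-day arrays, 5.17, 4.89, 4.56 and 4.82 on the 3-day arrays and 5.18 and 4.84 on the controls, with all groups overlapping. Its difference from control was -0.15 ± 0.15 in the 3-day group and -0.13 ± 0.15 in the 7-day group.

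Ccl20, the ligand of CCR6 and a product of stimulated keratinocytes, was the only gene of the 45 whose 7-day arrays all lay above the 3-day arrays. It had 5.69, 5.59, 6.27 and 5.52 on the 7-day arrays, 5.41, 5.23, 5.27 and 5.46 on the 3-day arrays and 5.68 and 5.28 on the controls. A control lay within the range of each PUVA group, and 7-day replicate 3 was the highest array. The 7-day minus 3-day difference was 0.42 ± 0.16 (unadjusted p of 0.0215, adjusted p of 0.453 in limma), and 0.26 without that array. Against control it was -0.14 ± 0.19 in the 3-day group and 0.29 ± 0.19 in the 7-day group. The keratinocyte markers also had a higher mean in the 7-day than in the 3-day group in 8 of 8 genes, with a median difference of 0.15. Ccr6 had 4.82, 4.72, 4.94 and 5.39 on the 7-day arrays, 4.80, 5.05, 5.25 and 5.40 on the 3-day arrays and 5.17 and 5.18 on the controls. The receptor overlapped between the PUVA groups, with a difference of -0.16 ± 0.16.

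Ccr7, the receptor that takes dendritic cells and naive T cells to lymph nodes, had 5.85, 6.13, 5.80 and 6.13 on the 7-day arrays, 5.66, 5.93, 6.20 and 6.21 on the 3-day arrays and 5.95 and 5.91 on the controls. Both controls lay within each PUVA group's range, and its differences were 0.07 ± 0.16 in the 3-day group and 0.05 ± 0.16 in the 7-day group. Its ligands Ccl19 and Ccl21 were not analysed here, since their probe sets list several symbols. Ccl25 and its receptor gene Ccr9, which serve gut homing, had differences from control of 0.00 ± 0.09 and -0.04 ± 0.17 in the 3-day group and 0.03 ± 0.09 and 0.22 ± 0.17 in the 7-day group. Ccr1l1, a receptor gene beside Ccr1, was dim, with 3.18, 3.04, 3.32 and 3.32 on the 7-day arrays, 3.22, 3.31, 3.32 and 3.70 on the 3-day arrays and 3.04 and 3.03 on the controls. Its difference of 0.35 ± 0.13 in the 3-day group (unadjusted p of 0.0244, adjusted p of 0.457) is again a difference between values below the lower quartile.

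Of the 45 genes, 23 lie in 6 runs of neighbours in the RefSeq order (assembly GRCm38.p6), and neighbours did not always have like values. In the run Ccl2, Ccl7, Ccl11, Ccl12, Ccl8 and Ccl1, the 3-day minus control differences were 0.80, 0.99, 0.14, 1.31, 0.21 and 0.18 along the chromosome. In the run Ccl5, Ccl9, Ccl6, Ccl3 and Ccl4 they were 0.53, 0.69, 0.83, 0.50 and 0.14. The receptor run Ccr1, Ccr1l1, Ccr3 and Ccr2 had 0.77, 0.35, 0.90 and 0.62, and each of these 4 genes had a negative difference between the 7-day and the 3-day group. The difference of Ccl11 was thus smaller than those of its neighbours Ccl7 and Ccl12 in the 3-day group, and it was positive between the PUVA groups (0.15), where both were negative (-0.79 and -1.44).

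Chemokine genes also varied more within groups than most genes. Their median pooled within-group SD was 0.25, against 0.14 for all genes, and 18 of the 45 were among the 10% of genes with the largest SD. Ccl12 was the most variable member with an SD of 0.98, a value larger than that of 99.9% of genes. Ccl7 (0.67), Ccl6 (0.62) and Ccr1 (0.58) came next. In each of these 4 the SD was larger among the 3-day than among the 7-day or control arrays, with 1.29 in the 3-day, 0.75 in the 7-day and 0.25 in the control group for Ccl12. The 8 genes for which 3-day replicate 4 was the highest array were Ccl5, Ccl17, Ccr1l1, Ccr3, Ccr6, Ccr7, Ccr8 and Cxcr6.

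The remaining genes of the chemokine system, of which 34 of 36 listed were measured, comprise the other chemokines and receptors, the atypical receptors that take up chemokines, and the G proteins, kinases and integrins through which the receptors act. In the 3-day group against control, 28 of the 34 had a difference above 0 (median 0.29), and 10 (29.4%) were higher at an unadjusted p under 0.05 and 0 lower, against 5.67% and 4.07% of all genes. In the 7-day group against control, 19 of 34 lay above 0 (median 0.047), with 0 at an unadjusted p under 0.05 (5.89% of all genes). Between the PUVA groups, 28 of 34 had a lower mean in the 7-day group (median -0.24), and 12 (35.3%) were lower and 0 higher at an unadjusted p under 0.05, against 4.43% and 5.33% of all genes. None passed an adjusted p of 0.05 in limma in any comparison. The 5 with the smallest p between the PUVA groups were Cx3cr1, the fractalkine receptor (-0.43 ± 0.09), Cxcl10 (-0.87 ± 0.21) and Cxcl11 (-0.64 ± 0.16), both ligands of CXCR3, Xcl1 (-0.83 ± 0.21), which draws cross-presenting dendritic cells, and its receptor gene Xcr1 (-0.51 ± 0.14). The count of 10 in the 3-day group was 16 without 3-day replicate 1 (9.91% of all genes in either direction). It was 7 without 3-day replicate 2 (8.03% of all genes). That count also fell when either control was left out, which leaves 1 control in the fit. Between the PUVA groups the count of 12 ranged from 9 to 18 on leaving out each array. It was 9 without 3-day replicate 2 (6.88% of all genes) and 18 without 3-day replicate 3 (11.1% of all genes).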

How the data were processed

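The deposited table holds 1 log2 value per probe set and array (41345 rows). The log base was inferred from the values, and how the authors normalized them is not stated in what was read here. Per the labels, RNA came from a miRNeasy preparation with DNase, and Affymetrix WT PLUS reagents labelled it. Array medians were 5.83 to 5.86. No scan date or batch was known, and the number of arrays limits the precision.

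Probe sets with 1 symbol in the platform annotation were used (23521; 1814 list several symbols and 16010 list no gene), and the probe set with the highest mean stood for a gene. All 45 members matched RefSeq by symbol and Entrez identifier. Ccl27b, Ccl19, Ccl21a, Ccl21b and Ccl21c had no probe set of their own and were not analysed here. No filter on dim signals was used. No sequences were at hand to print.

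A linear model with 1 mean per group was run on the 10 arrays in limma 3.58.1 under R 4.3.3, using moderated two-sided tests (7 residual and 3.514 prior degrees of freedom) and Benjamini-Hochberg adjustment over 22180 genes. The fit takes 1 spread per gene, so for genes that vary more between the 2 controls than among PUVA arrays, errors against control are too small. Genes described on every array were the 6 with the smallest p in each comparison and a fixed set of well-known skin chemokines. Ccl3, Ccl6, Ccl7 and Ccr1 were added after their values were seen. The members and lists were chosen with earlier results of these data known. The scripts were tested on simulated data. Replicates were numbered in sample order, so equal numbers do not mark pairs.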

Additional observations from a re-analysis of the deposited data

Results flagged for a closer look

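In 3 of the 90 groups of 4 arrays tested for a far sample (45 genes in both PUVA groups), 1 array stood apart from the other 3 by Dixon's test at the 95% level, which chance does in about 1 of 20 groups. Ccl17 had 4.75 on 7-day replicate 2, below the other 7-day arrays. Ccl22 had 6.66 on 7-day replicate 1, below the others of its group. Ccl27a had 6.83 on 3-day replicate 2, below the other 3-day arrays.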

How the results depend on the processing

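Results were recomputed without the lowest 30% of genes, with the mean of a gene's probe sets, quantile normalization, trend and robust eBayes, array weights, only the 2 groups compared, and without each array. The counts of members without overlap and of other pathway genes were added after seeing the data. No paired analysis was possible because the replicate numbers follow sample order. With 2 controls and 4 arrays a group, 1 array decides many of these values. No member passed the adjusted threshold under any alternative except Cxcl13 without control replicate 1 (against control, 1.44 for the 3-day arrays and 1.41 for the 7-day arrays). The causes were not tested. Genes past the threshold, of all 22180, were 3 with array weights for the 3-day group against control (1 in the report). Between the PUVA groups they were 6 with array weights and 1 both without the lowest 30% and with only the 2 groups (2 in the report). Leaving out each array gave 1 to 182 for the 3-day group, 0 to 217 for the 7-day group and 0 to 10 between the PUVA groups. Without each PUVA array, members at an unadjusted p under 0.05 were 5 to 11, 1 to 4 and 5 to 12. The shares of all genes at that p were 8.03% to 11.3%, 4.76% to 6.23% and 6.7% to 12.2%. Without each of the 10 arrays, the members' median differences were 0.084 to 0.17, 0.046 to 0.10 and -0.11 to 0.0045. Of the 81 differences of the 27 genes described by rule, 33 changed sign under some alternative, 28 of them only on leaving out an array, and none of the 33 was above 0.27 in size. Over all 45 genes, 56 of 135 differences changed sign on leaving out an array, the largest being that of Ccl6 between the PUVA groups (-0.60 to 0.038). With array weights the 3-day group's differences from control were 0.023 for Ccl22, 0.0198 for Ccr6 and 0.039 for Cxcr4, and between the PUVA groups 0.0051 for Cxcl13 and -0.0087 for Cxcr1. Quantile normalization gave -0.0031 for Cxcr1 between them. Leaving out each array gave these ranges for the 3-day group against control: Ccl20 -0.33 to 0.057, Ccl22 -0.23 to 0.10, Ccr10 -0.32 to 0.0204, Cxcr2 -0.40 to 0.39, Ccl11 -0.052 to 0.34, Ccl28 -0.12 to 0.13, Cxcl2 -0.28 to 0.37, Cxcr4 -0.31 to 0.26, Ccr6 -0.14 to 0.053, Ccl17 -0.0067 to 0.21 and Ccr7 -0.0002 to 0.18. For the 7-day group against control they were Ccr10 -0.30 to 0.0403, Ccr2 -0.31 to 0.46, Cxcl1 -0.11 to 0.024, Ccl12 -0.46 to 0.13, Ccl27a -0.34 to 0.13, Ccr3 -0.15 to 0.034, Cxcl14 -0.039 to 0.58, Cxcl2 -0.20 to 0.45, Cxcr2 -0.23 to 0.56, Cxcr4 -0.40 to 0.16, Ccl22 -0.16 to 0.032, Ccr7 -0.0049 to 0.11 and Ccl5 -0.049 to 0.17. Between the PUVA groups they were Cxcl13 -0.14 to 0.078, Cxcr1 -0.046 to 0.046, Ccl22 -0.20 to 0.13, Ccr10 -0.079 to 0.12, Ccr7 -0.14 to 0.047, Cxcl12 -0.12 to 0.0305, Cxcr4 -0.30 to 0.076, Cxcl2 -0.0018 to 0.17 and Cxcr2 -0.0069 to 0.32.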
